A study of Mus musculus with 12 samples.

Results

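The genes described here encode the structural proteins of the sarcomere and of the Z-disc, with their close helpers. They are 49 genes chosen by name from a list, and all 49 were among the genes listed in each of the 3 deposited tables, which together listed 13865 genes. All 49 passed the filter on low values in each comparison. Their transcripts were measured by RNA sequencing of the tibialis anterior, a shin muscle built mostly of fast fibres, in 12 libraries from C57BL/6J mice, with 4 in each of 3 groups. KPC_UA muscle came from mice that carried KPC tumours and ate chow with ursolic acid added, a triterpenoid of fruit peel. KPC muscle came from mice with the same tumours on standard chow, and Sham muscle from mice without tumours on standard chow. The tumours were grown by injecting KPC cells, a mouse pancreatic cancer line, into the pancreas, so each tumour-bearing animal carried an injected line and not a tumour that arose in place. Age, sex and the dose of ursolic acid are not given in the labels used here. The labels also do not state that each sample came from a different mouse, so every p-value here reflects the spread between samples and nothing wider.

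The sarcomere is the contractile unit of striated muscle. Thin filaments of actin, tropomyosin, troponin and nebulin are anchored in the Z-disc, and thick filaments of myosin are held at the M-band by myomesins. Titin spans from the Z-disc to the M-band and acts as a molecular spring. Leiomodins and tropomodulins set the length of thin filaments at their free ends, and chaperones and adaptor proteins fold myosin and stabilise the parts as they are built in. In wasting muscle, ubiquitin ligases are known to remove several of these proteins, and many of their genes are driven by the serum response factor SRF and by MEF2 proteins, which bind the CArG box and the MEF2 site.

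Promoter windows of these genes were searched for the CArG box, the MEF2 site and the MCAT element. Sequences were taken from RefSeq for GRCm38.p6 and reach from 250 bases before to 50 bases after a transcription start. Of the 49 genes, 37 had at least 1 window, and the 37 genes had 44 windows. A CArG box was found in 5 of the 44 windows (11.36%), against 1.63% of all 32851 windows, and these belonged to Acta1, Actc1, Ldb3 and Myom1. Both windows of Ldb3 overlap and hold the same box. A MEF2 site was found in 6 windows (13.64%), of Klhl41, Myoz2, Synpo2, Synpo2l, Ttn and Xirp2, against 0.56% of all windows. The MCAT element (CATTCC or its reverse complement GGAATG) was found in 10 windows (22.73%), against 14.66% of all windows, and both windows of Flnc hold the same one. Both strands were searched, and no matches of different motifs overlapped in the windows of these genes. The 12 genes with no window, Lmod3 and Myom2 among them, are named only.

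The windows below are of genes whose KPC and Sham values did not overlap, plus Lmod2, which DESeq2 called. Acta1 is shown at chr8:123894726-123895025, Tpm1 at chr9:67049164-67049463, Ldb3 at chr14:34588632-34588931, Synpo2 at chr3:123236100-123236399, Synpo2l at chr14:20668305-20668604 and Pdlim5 at chr3:142395647-142395946, all on the minus strand. Lmod2 is shown at chr6:24597521-24597820 and Myom1 at chr17:71019307-71019606, both on the plus strand. The Myom1 start lies inside the gene as GENCODE draws it. Of the starts listed for Ldb3, Synpo2l and Pdlim5, the one whose window lies farthest upstream is printed. Each sequence is written 5′ to 3′ along the gene, and capitals mark the CArG box in Acta1, Ldb3 and Myom1, the MEF2 site in Synpo2 and Synpo2l, and the MCAT element in Tpm1 and further downstream in Acta1.
Acta1: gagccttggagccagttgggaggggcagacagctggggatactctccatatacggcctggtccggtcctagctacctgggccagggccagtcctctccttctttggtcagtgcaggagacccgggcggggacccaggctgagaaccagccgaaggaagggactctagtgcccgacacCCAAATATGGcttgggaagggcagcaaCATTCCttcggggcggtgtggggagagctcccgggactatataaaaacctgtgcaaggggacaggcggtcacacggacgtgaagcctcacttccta
Tpm1: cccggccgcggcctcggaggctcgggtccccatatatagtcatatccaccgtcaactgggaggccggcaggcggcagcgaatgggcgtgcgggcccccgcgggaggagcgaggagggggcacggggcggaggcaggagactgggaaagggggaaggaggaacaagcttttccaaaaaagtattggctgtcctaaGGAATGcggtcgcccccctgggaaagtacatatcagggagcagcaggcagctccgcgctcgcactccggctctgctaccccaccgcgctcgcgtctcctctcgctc
Ldb3: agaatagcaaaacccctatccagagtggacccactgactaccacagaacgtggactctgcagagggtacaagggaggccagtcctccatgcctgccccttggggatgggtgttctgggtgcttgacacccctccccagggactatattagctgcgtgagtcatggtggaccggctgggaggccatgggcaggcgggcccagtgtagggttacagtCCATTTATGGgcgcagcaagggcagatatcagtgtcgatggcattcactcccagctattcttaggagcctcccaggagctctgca
Myom1: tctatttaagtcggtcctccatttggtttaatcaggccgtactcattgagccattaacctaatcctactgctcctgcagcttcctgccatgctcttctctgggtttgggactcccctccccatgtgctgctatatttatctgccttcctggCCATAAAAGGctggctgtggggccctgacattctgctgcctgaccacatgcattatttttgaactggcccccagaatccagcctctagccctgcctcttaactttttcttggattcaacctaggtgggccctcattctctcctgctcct
Synpo2: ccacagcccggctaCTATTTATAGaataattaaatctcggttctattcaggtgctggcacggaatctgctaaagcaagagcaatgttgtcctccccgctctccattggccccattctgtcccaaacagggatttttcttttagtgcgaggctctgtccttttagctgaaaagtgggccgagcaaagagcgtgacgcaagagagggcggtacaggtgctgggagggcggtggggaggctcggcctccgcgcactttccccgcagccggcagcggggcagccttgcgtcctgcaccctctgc
Synpo2l: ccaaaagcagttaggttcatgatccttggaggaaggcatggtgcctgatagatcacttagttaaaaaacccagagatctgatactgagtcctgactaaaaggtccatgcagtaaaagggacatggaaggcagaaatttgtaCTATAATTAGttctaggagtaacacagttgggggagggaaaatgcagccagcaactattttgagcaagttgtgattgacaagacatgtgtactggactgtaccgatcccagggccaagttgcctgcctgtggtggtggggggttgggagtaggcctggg
Pdlim5: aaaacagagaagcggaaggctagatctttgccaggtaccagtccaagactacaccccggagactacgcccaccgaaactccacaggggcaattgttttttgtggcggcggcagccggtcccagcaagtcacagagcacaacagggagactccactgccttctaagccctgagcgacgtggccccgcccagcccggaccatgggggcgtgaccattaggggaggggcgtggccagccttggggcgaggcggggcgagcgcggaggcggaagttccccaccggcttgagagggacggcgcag
Lmod2: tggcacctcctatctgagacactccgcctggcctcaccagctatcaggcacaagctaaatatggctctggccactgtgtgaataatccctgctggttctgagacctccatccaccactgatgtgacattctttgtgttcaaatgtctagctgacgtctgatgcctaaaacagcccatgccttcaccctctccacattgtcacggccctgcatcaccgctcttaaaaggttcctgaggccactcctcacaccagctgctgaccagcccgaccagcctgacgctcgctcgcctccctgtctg
The CArG box began 73 bases before the start of Acta1, 35 bases before that of Ldb3 and 99 bases before that of Myom1. The MEF2 site began 236 bases before the start of Synpo2 and 109 bases before that of Synpo2l. The MCAT element began 46 bases before the start of Acta1 and 56 bases before that of Tpm1. None of these 3 motifs was in the Lmod2 window or in either window of Pdlim5. Genes with a CArG box included both lower ones in KPC muscle (Acta1 and Ldb3) and a higher one (Myom1).

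Reads in listed genes numbered 22.3 to 32.0 M per library. The 49 genes held 11.77 to 12.4% of them in KPC_UA muscle, 9.46 to 11.81% in KPC muscle and 11.61 to 12.72% in Sham muscle, with the lowest share in KPC replicate 1. KPC libraries also differed most from each other, with a median coefficient of variation over the 49 genes of 29.39%, against 17.06% in KPC_UA and 15.66% in Sham. The same held for all genes with a mean of at least 10 (32.0% in KPC, against 16.18% in KPC_UA and 15.58% in Sham). KPC replicates 1 and 4 stood apart from KPC replicates 2 and 3 in many of the genes below. In KPC_UA replicate 2, KPC replicate 4 and Sham replicate 1, the longest 10% of genes was low against the shortest 10%. The shifts were -0.658, -0.871 and -0.676 on the log2 scale relative to the rest of their groups. KPC replicate 1 had the largest shift the other way, at 0.484. Sham replicate 1 also held liver transcripts, whose markers summed to 865 normalised reads there, against 13.3 or fewer in every other library. Markers of fast fibres were abundant in all 12 libraries, at 3799484 to 4724795 normalised reads in KPC_UA, 3721698 to 4469063 in KPC and 3951854 to 4784079 in Sham. Of the 6 cardiac markers, Myh6 and Tnnt2 together reached at most 429 normalised reads, and the other 4 were not analysed here.

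Levels of these genes spanned a wide range in every group. Levels are normalised reads, the recovered reads of a library divided by a size factor set over all 12 libraries, and genes are compared per kilobase of annotated exon. The order in Sham muscle was led by Acta1, the skeletal muscle actin, with a mean of 364835 normalised reads per kb in KPC_UA, 291069 in KPC and 371086 in Sham. Next came the fast troponins Tnnc2 (201724 in KPC_UA, 149563 in KPC and 214203 in Sham) and Tnni2 (133861 in KPC_UA, 125764 in KPC and 133570 in Sham), and then Actn3, the fast-fibre actinin (94643 in KPC_UA, 91471 in KPC and 93444 in Sham). At the low end were slow-fibre forms. Tnni1, the slow troponin I, had 15.2 normalised reads per kb in KPC_UA, 11.9 in KPC and 10.2 in Sham, and Myom3, an M-band protein of slow and intermediate fibres, had 41.9 in KPC_UA, 20.9 in KPC and 44.2 in Sham. Values of Acta1 and Actc1 are uncertain, because their coding sequences are near-identical and counting could split reads between them. Small parts of the exons of Neb, Cap2, Cfl2, Ttn, Mybpc1, Mybpc2, Des, Xirp2, Nrap and Unc45b overlap genes on the other strand, and the other overlaps of this kind are given beside the gene.

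**Figure D1:**
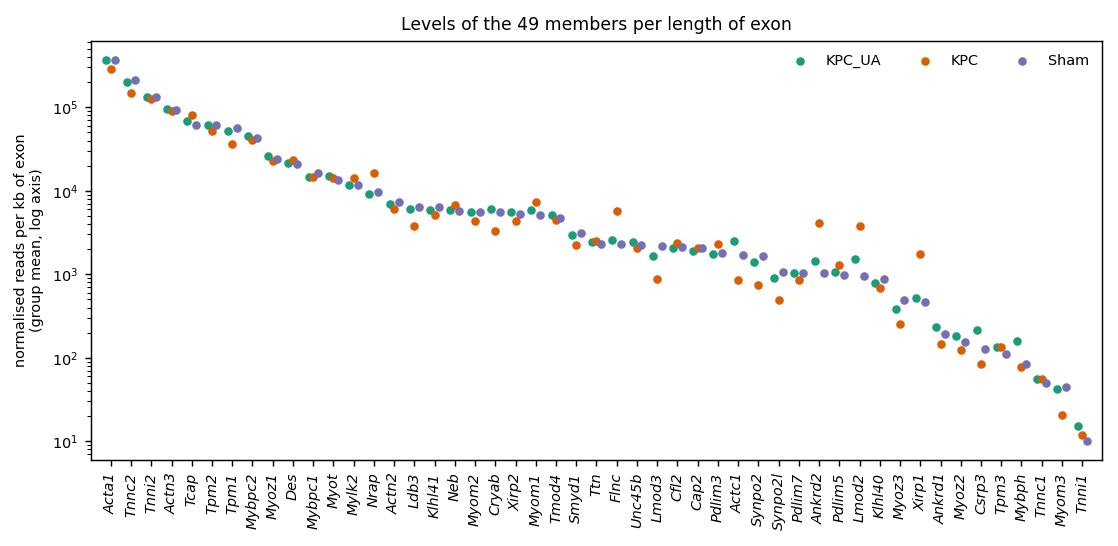
Group means of the 49 genes in normalised reads per kb of exon (log axis), ordered by the Sham mean, with KPC_UA, KPC and Sham in different colours. Acta1 and the fast-fibre genes Tnnc2, Tnni2 and Actn3 lie at the left and the slow-fibre gene Tnni1 at the right. KPC means of Flnc, Ankrd2, Lmod2 and Xirp1 lie above the other groups.

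The question for KPC against Sham was how a tumour bears on the transcripts of the contractile apparatus. Lmod2 and Myom1 were higher and Lmod3 lower in KPC muscle by DESeq2, while limma called none of the 49 genes. Fold changes are given as log2 changes, with positive values higher in the group named first. Of the most abundant genes, Acta1 and Tnnc2 were at -0.36 and -0.53, and Tnni2 and Actn3 at -0.09 and -0.01, and none of them passed an adjusted threshold. By limma, the test used for them (adjusted p under 0.05 over all genes tested), 160 of 13542 genes passed (1.18%). Among the 49 genes, 12 had an unadjusted p under 0.05 by limma, 3 above 0 and 9 below 0, while 3312 of all genes did (24.5%, 12.1% above and 12.4% below 0). edgeR called 0 of the 49 and 188 of all genes (1.39%), and DESeq2 called 3 of the 46 genes to which it gave an adjusted p, 2 higher and 1 lower, and 1595 of 13496 genes (11.8%, 6.79% higher and 5.03% lower). The authors' deposited table called the same number of all genes, 1595, and the same 3 genes. Its log2 changes equal those of DESeq2 here within 0.01 for 100% of genes, so it adds no separate support. The share of the 49 genes called was thus at or below that of all genes by each tool. The median log2 fold change of the 49 genes was -0.15, with 30 below 0, against 0.008 over all genes tested. KPC and Sham values were fully separate in 9 of the 49 genes, 2 higher and 7 lower in KPC, and in 2588 of all genes (19.1%, 10% higher and 9.11% lower). In whole muscle, fewer cells of a type and less RNA per cell cannot be told apart.

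In the thin filament, 6 of 10 genes had log2 changes below 0 in KPC muscle and 0 passed limma's threshold, with a median of -0.16. Tpm1, a tropomyosin that lies along actin and gates myosin binding (chromosome 9, 67022590 to 67049406, GRCm38), had 158225, 295896, 277902 and 215241 normalised reads in KPC replicates 1 to 4, against 386137, 396145, 406799 and 297833 in Sham replicates 1 to 4. All 4 KPC values lay below all 4 Sham values, although KPC replicate 2 and Sham replicate 4 were close. Its log2 change was -0.68 (95% interval -1.17 to -0.20, adjusted p = 0.122 by limma, 0.0603 by DESeq2). Acta1 (chromosome 8, 123891769 to 123894751) had 356482, 465092, 498534 and 468222 normalised reads in KPC, against 607570, 560193, 595183 and 517007 in Sham. Its groups did not overlap either, with KPC replicate 1 the lowest. Acta1 had a log2 change of -0.36 (95% interval -0.70 to -0.02, adjusted p = 0.186 by limma). Tnnc2, the fast troponin C that binds calcium, had a log2 change of -0.53 (adjusted p = 0.162 by limma) and overlapping groups. Of its 800 exonic bases, 592 overlap Ube2c on the other strand, so its values are uncertain if counting did not use strand. Tnni2, the fast troponin I, was close to the Sham level, at -0.09 (95% interval -0.50 to 0.33, adjusted p = 0.782 by limma). Neb, nebulin, the giant protein that runs along the thin filament, was at 0.20 (95% interval -0.48 to 0.87, adjusted p = 0.696 by limma), with its lowest values in KPC replicate 4 (97280 normalised reads) and Sham replicate 1 (95778), which are libraries with fewer reads of long transcripts. The other 5 genes, Actc1, Tpm2, Tpm3, Tnni1 and Tnnc1, were between -1.02 and 0.35 on the log2 scale, all with overlapping groups.

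The 2 leiomodins differed in opposite directions. Leiomodins nucleate and lengthen actin filaments, Lmod2 mainly in heart and Lmod3 in skeletal muscle. Lmod2 (chromosome 6, 24597762 to 24605414) had 16729, 2471, 4429 and 6341 normalised reads in KPC replicates 1 to 4, against 1797, 1082, 2132 and 2630 in Sham replicates 1 to 4. KPC replicates 1, 3 and 4 lay above every Sham value, and KPC replicate 2 lay just below Sham replicate 4. Lmod2 had a log2 change of 1.68 (95% interval 0.55 to 2.81, adjusted p = 0.113 by limma), and DESeq2 gave 1.97 (adjusted p = 0.00382). The DESeq2 call of Lmod2 was kept when any 1 of the 8 libraries was left out, with log2 changes of 1.21 without KPC replicate 1 to 2.25 without KPC replicate 2.

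Lmod3 (chromosome 6, 97238534 to 97252759), whose loss causes nemaline myopathy in humans and mice, had 536, 2952, 2131 and 2189 normalised reads in KPC, against 5517, 4485, 5008 and 4392 in Sham. All 4 KPC values lay below every Sham value, and KPC replicate 1 was far below the other 3. Lmod3 had a log2 change of -1.55 (95% interval -2.55 to -0.55, adjusted p = 0.105 by limma), and DESeq2 gave -1.31 (adjusted p = 0.0224). The DESeq2 call of Lmod3 was lost without any 1 of the Sham replicates, with adjusted p = 0.0991, 0.0718, 0.0878 and 0.0618 by DESeq2 without Sham replicates 1 to 4. Without KPC replicates 1 and 4, the log2 change of Lmod3 was -0.94 (adjusted p = 0.00977 by limma). That pair was picked after the values were seen, and without it limma called 600 of all genes, against 160 with all libraries. Compared per kb, the level of Lmod2 lay above that of Lmod3 in 1 of 4 KPC_UA libraries, 3 of 4 KPC libraries and 0 of 4 Sham libraries. The other 3 genes of filament ends and turnover were close to Sham. Tmod4, the skeletal tropomodulin that caps the free end, had a log2 change of -0.12 with adjusted p = 0.768 by limma. It had 4272 normalised reads in KPC replicate 1 and 7012 to 9111 in every other KPC and Sham library. Cap2 and the muscle cofilin Cfl2, which recycle actin, were at 0.03 and 0.15 (adjusted p = 0.929 and 0.547 by limma).

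**Figure D2:**
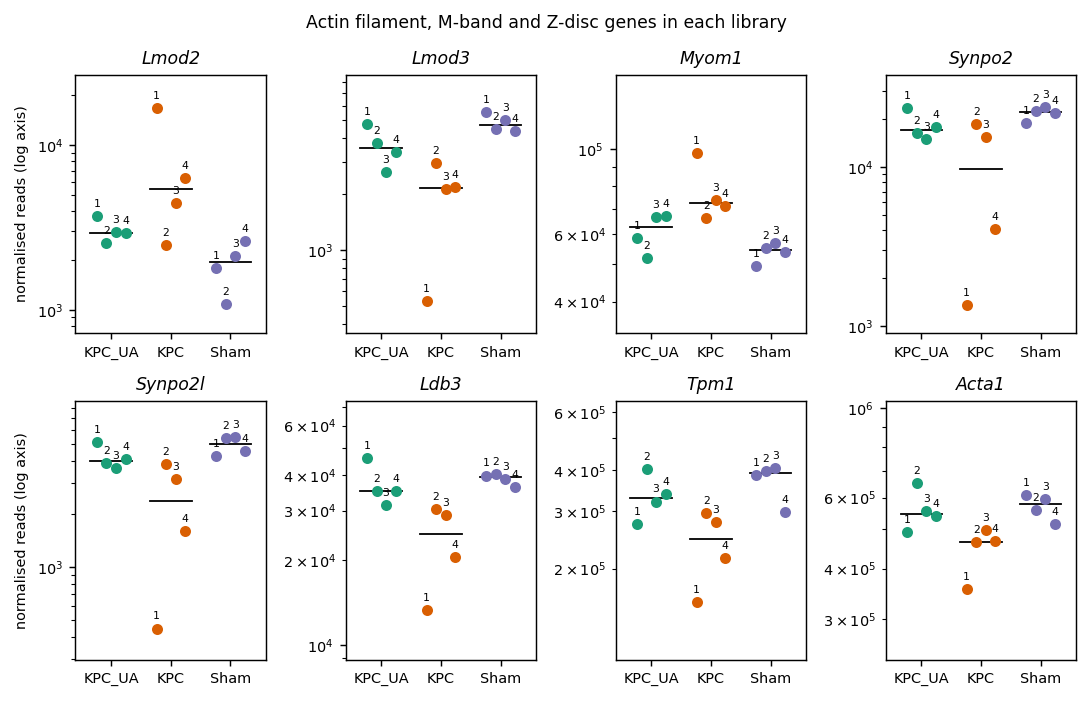
Normalised reads (log axis) of Lmod2, Lmod3, Myom1, Synpo2, Synpo2l, Ldb3, Tpm1 and Acta1 in each library, with points numbered by replicate and lines at group medians. KPC values lie above Sham values in Myom1 and below them in Lmod3, Synpo2, Synpo2l, Ldb3, Tpm1 and Acta1, and KPC replicate 1 is the most distant point in each panel.

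Among genes of the thick filament, titin and the M-band, 5 of 8 were below 0 and 0 passed limma's threshold, with a median of -0.12. The myomesins, which crosslink myosin at the M-band, did not differ alike. Myom1 (chromosome 17, 71002633 to 71126856) had 97983, 65990, 73539 and 70939 normalised reads in KPC, against 49583, 55206, 56789 and 53991 in Sham, with no overlap and a log2 change of 0.50 (95% interval 0.14 to 0.86, adjusted p = 0.126 by limma). DESeq2 called Myom1 at 0.51 (adjusted p = 0.0401), but the call was lost without any 1 of the Sham replicates and without KPC replicate 3 or 4 (adjusted p = 0.051 to 0.156 by DESeq2). Myom2, the M-protein of fast fibres, had 31568, 45152, 46899 and 32595 normalised reads in KPC, against 48848, 52040, 49790 and 47316 in Sham, and a log2 change of -0.37 (adjusted p = 0.226 by limma). Its KPC values lay below every Sham value, with KPC replicates 1 and 4 the lowest. Myom3 was at -1.09 (95% interval -2.0 to -0.17, adjusted p = 0.158 by limma), at levels of 60.3 to 174 normalised reads in KPC and 143 to 434 in Sham. With 10459 exonic bases, Myom1 is among the longest 10% of genes (from 9775 bases). Its highest KPC value was in replicate 1, where long genes were high, and its lowest Sham value in replicate 1, where they were low. The part of transcript length in its DESeq2 call was not tested. The locus of Myom1 overlaps Myl12a on the other strand, and the sources used here do not say whether counting used strand.

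Titin, the largest of these proteins, did not pass a test. Ttn had 288177, 335674, 378671 and 178781 normalised reads in KPC, against 195723, 297988, 272665 and 326138 in Sham, and a log2 change of 0.08 (95% interval -0.48 to 0.64, adjusted p = 0.858 by limma). The lowest values were in KPC replicate 4 and Sham replicate 1, the libraries with fewer reads of long transcripts. Without both of them the log2 change was 0.15 for Ttn and 0.26 for Neb (adjusted p = 0.583 and 0.431 by limma). Mybpc2, the fast myosin-binding protein C, was at -0.09 (95% interval -0.51 to 0.34, adjusted p = 0.788 by limma), and KPC replicate 4 was its lowest library at 104196 normalised reads. Mybph, a short relative of these proteins, ranged from 6.87 to 353 normalised reads in KPC, against 112 to 346 in Sham, with a log2 change of -0.93 (95% interval -3.20 to 1.34, adjusted p = 0.573 by limma). DESeq2 put Mybph at -0.11. Of the 2329 exonic bases of Mybph, 1162 overlap Adora1 on the other strand. The slow myosin-binding protein Mybpc1 and the kinase Mylk2, which phosphorylates the myosin light chain, were at -0.15 and 0.30 (adjusted p = 0.594 and 0.308 by limma).

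At the Z-disc, 9 of 13 genes were below 0 and 0 passed limma's threshold, with a median of -0.21. Synpo2, or myopodin, an actin-bundling protein that takes part in the clearance of damaged filamin, showed the lowest log2 change of the 49 genes by limma, while edgeR and DESeq2 put Lmod3 lowest (chromosome 3, 123076519 to 123236149). Its values were 1357, 18462, 15325 and 4080 normalised reads in KPC, against 18739, 22435, 23743 and 21828 in Sham. KPC replicates 1 and 4 were far below Sham, while KPC replicate 2 lay just below Sham replicate 1. The log2 change of Synpo2 was -1.78 (95% interval -3.33 to -0.23, adjusted p = 0.163 by limma), -1.14 by DESeq2 (adjusted p = 0.185), and -0.36 without KPC replicates 1 and 4 (adjusted p = 0.191 by limma). That pair held the lowest values of Synpo2 and was picked after they were seen, so a smaller change was bound to follow. Its relative Synpo2l (chromosome 14, 20658946 to 20668354) followed the same order of libraries, at 448, 3851, 3158 and 1590 normalised reads in KPC, against 4258, 5359, 5456 and 4524 in Sham. That gave a log2 change of -1.51 (95% interval -2.76 to -0.26, adjusted p = 0.154 by limma).

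Ldb3, also known as ZASP or Cypher, ties actinin to the Z-disc (chromosome 14, 34526603 to 34588682). It had 13329, 30295, 28997 and 20517 normalised reads in KPC, against 39936, 40550, 38734 and 36436 in Sham, with no overlap. Limma put its log2 change at -0.81 (95% interval -1.38 to -0.25, adjusted p = 0.116 by limma and 0.0546 by DESeq2). Actn3 was close to Sham, at -0.01 (95% interval -0.43 to 0.41, adjusted p = 0.977 by limma), and so was its broader relative Actn2 at -0.23 (adjusted p = 0.491 by limma). Myoz3, a calsarcin that links actinin to calcineurin, was at -1.27 (adjusted p = 0.162 by limma), with KPC replicates 1 and 4 at 510 and 252 normalised reads, KPC replicates 2 and 3 at 1354 and 1393, and Sham at 1263 to 2022. The PDZ and LIM domain protein Pdlim5 had 17231, 9716, 9728 and 9826 normalised reads in KPC, against 9138, 8576, 9070 and 8008 in Sham. Its groups did not overlap, but 3 of the 4 KPC values lay just above the highest Sham value, and its log2 change was 0.37 (adjusted p = 0.284 by limma). The other 6 Z-disc genes were between -0.32 (Pdlim7) and 0.35 (Tcap, which anchors titin), all with overlapping groups.

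Genes of the intermediate filament and of repair at the Z-disc and junctions were uneven between KPC libraries, and 0 of 6 passed limma's threshold. Flnc, filamin C, which crosslinks actin and is recruited to damaged sarcomeres, had 124809, 17765, 26556 and 45293 normalised reads in KPC, against 17826, 24273, 24610 and 21136 in Sham. Xirp1, a Xin repeat protein found with filamin C at such lesions, had 32759, 2178, 2151 and 3595 normalised reads in KPC, against 2554, 2851, 3222 and 2208 in Sham. Both were highest in KPC replicate 1 and next in KPC replicate 4, and KPC replicate 2 was below the lowest Sham value in each. Their log2 changes were 0.89 and 0.85 (adjusted p = 0.276 and 0.470 by limma). DESeq2 gave Flnc 1.28 (adjusted p = 0.0721) and gave no adjusted p to Xirp1, Ankrd1 and Ankrd2, each of which had 1 KPC library far above the rest.

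Nrap, an actin-binding anchor of assembling myofibrils and tendon junctions, had 136669, 51996, 62270 and 113039 normalised reads in KPC, against 44602, 55821, 59739 and 53605 in Sham. KPC replicates 1 and 4 lay far above every other library, while KPC replicates 2 and 3 were near Sham. Nrap had a log2 change of 0.66 (95% interval 0.00 to 1.31, adjusted p = 0.201 by limma), and 0.10 without KPC replicates 1 and 4 (adjusted p = 0.761 by limma). That pair held the highest values of Nrap and was picked after they were seen, so a lower value was bound to follow. Cryab, a small heat shock protein that binds desmin and actin, had 1744, 5563, 5149 and 7217 normalised reads in KPC, against 11050, 6411, 6490 and 8809 in Sham. Its log2 change was -0.87 (adjusted p = 0.212 by limma), with KPC replicate 4 inside the Sham range and the other KPC values below it. The exons of Cryab overlap Hspb2 on the other strand. Des, desmin, the intermediate filament that joins neighbouring Z-discs, was at 0.13 (95% interval -0.28 to 0.53, adjusted p = 0.673 by limma), and Xirp2 at -0.35 (adjusted p = 0.451 by limma).

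The 3 stretch-responsive genes varied most of all, with a median coefficient of variation of 149.7% in KPC, against 74.51% in KPC_UA and 47.99% in Sham. They encode proteins that shuttle between the sarcomere and the nucleus. Ankrd1 had 1373, 154, 27.7 and 119 normalised reads in KPC, against 663, 417, 471 and 662 in Sham. KPC replicate 1 was above every Sham library and the other 3 KPC libraries were below every Sham library, so the log2 change of -1.72 (adjusted p = 0.258 by limma) described neither. Without KPC replicate 1 it was -2.74 (adjusted p = 0.0271 by limma). With all libraries DESeq2 put Ankrd1 at -0.41. Ankrd2 had 15246 normalised reads in KPC replicate 1, against 624 to 1918 in the other KPC libraries and 554 to 1864 in Sham. Csrp3, the muscle LIM protein, was at 128 to 347 normalised reads in KPC and 192 to 516 in Sham, with a log2 change of -0.55 (adjusted p = 0.404 by limma).

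**Figure D3:**
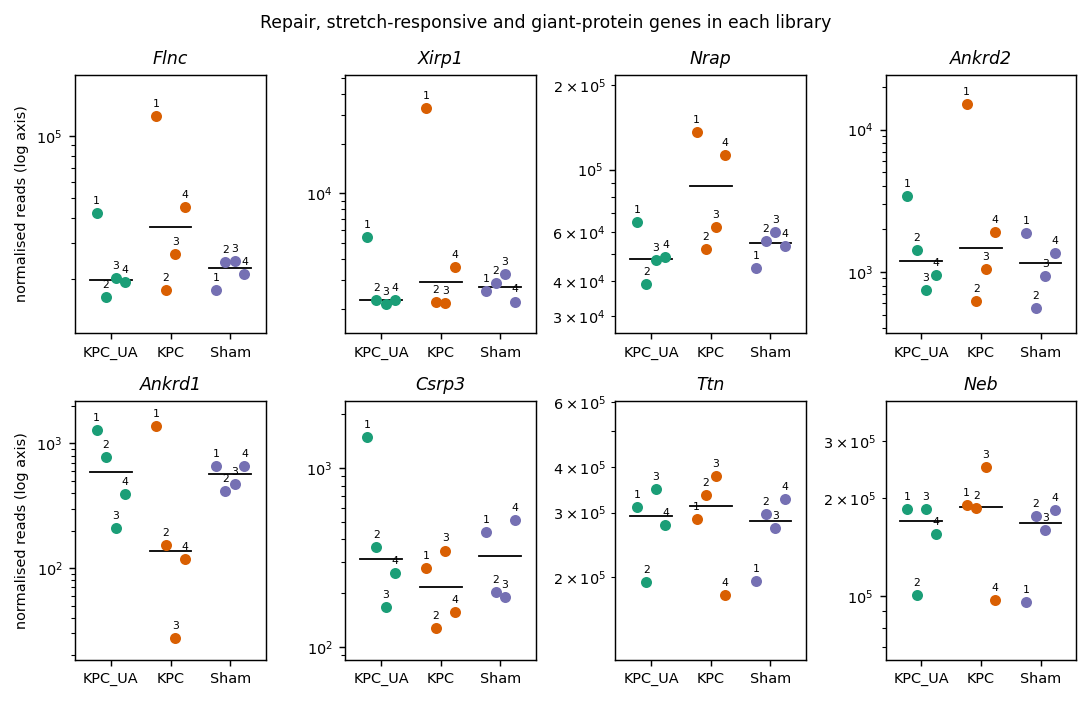
Normalised reads (log axis) of Flnc, Xirp1, Nrap, Ankrd2, Ankrd1, Csrp3, Ttn and Neb in each library, with points numbered by replicate and lines at group medians. KPC replicate 1 is highest of all 12 libraries in Flnc, Xirp1, Nrap, Ankrd2 and Ankrd1, and KPC_UA replicate 2, KPC replicate 4 and Sham replicate 1 are the lowest of their groups in Ttn and Neb.

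The 4 genes of myosin folding and sarcomere assembly all had log2 changes below 0 in KPC muscle, from -0.56 to -0.16, and 0 passed limma's threshold. Unc45b, the chaperone that folds the myosin head, was at -0.16 (95% interval -0.59 to 0.27, adjusted p = 0.612 by limma). KPC replicate 1 had 6341 normalised reads of it, against 10015 to 10420 in the other KPC libraries and 9346 to 10642 in Sham. Smyd1, a muscle methyltransferase that binds myosin, had 6186, 14122, 13024 and 7240 normalised reads in KPC, against 12784, 15120, 14350 and 13991 in Sham, with a log2 change of -0.56 (adjusted p = 0.226 by limma). Klhl40, which stabilises Lmod3 and nebulin, was at -0.37 (adjusted p = 0.262 by limma). Without KPC replicates 1 and 4 its log2 change was -0.61 (adjusted p = 0.0424 by limma). That pair was picked after the values were seen, and without it limma called 600 of all genes, against 160 with all libraries. KPC replicates 2 and 3 of Klhl40 were at 1448 and 1414 normalised reads and Sham at 1820 to 2662. The left-out KPC replicates 1 and 4 were at 2094 and 1953, inside the Sham range. Klhl40 shares its locus with Gm47108 on the other strand.

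Other cell types also differed between these groups. Of 6 fibroblast markers, 4 were lower in KPC by limma, and the list summed to 4203 to 6807 normalised reads in KPC, against 10964 to 15815 in Sham. Of 5 adipocyte markers, 3 were lower by limma, with sums of 2179 to 3760 in KPC and 2710 to 4004 in Sham. Most of these sums was Fabp4, at 2056 to 3648 in KPC and 2176 to 3447 in Sham. In the other 4 markers every KPC value lay below every Sham value, as in Plin1 (3.82 to 5.61 against 23.0 to 78.9). All of these limma calls were lost without KPC replicate 3 or 4 or any 1 Sham replicate. Of 6 red cell markers 0 were called by limma and 4 were higher by DESeq2, with sums of 2787 to 10633 in KPC and 749 to 3442 in Sham. Of 5 tested markers of developing or regenerating fibres, 3 were higher by DESeq2 and 0 called by limma. These markers did not differ alike. Myog (68.4 to 114 normalised reads in KPC, 27.1 to 43.4 in Sham) and Chrna1 (144 to 317 and 51.5 to 116) did not overlap. Ncam1 overlapped, as did the myosins Myh3 (50.5 to 317 in KPC, 64.1 to 88.4 in Sham) and Myh8 (661 to 1898 and 1006 to 1727). The part of these differences in the values of the sarcomere genes was not tested.

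The question for KPC_UA against KPC was whether these transcripts differ with ursolic acid in the chow of tumour-bearing mice. Thin filament and Z-disc genes were mostly above KPC in level and Lmod2 and Nrap below it, but no gene passed a test. This comparison shares its 4 KPC libraries with KPC against Sham. None of the 49 genes was called by limma, edgeR or DESeq2. Over all genes limma and edgeR called 0 of 13522 (0%), DESeq2 called 100 of 12957 (0.772%), and the authors' deposited table called 99 (0.764%) and none of these genes. An unadjusted p under 0.05 by limma was found for 8 of the 49 genes, 7 above 0 and 1 below, and for 1714 of all genes (12.7%, 6.18% above and 6.49% below 0). The median log2 change of the 49 genes was 0.19, with 33 above 0, against -0.004 over all genes tested. KPC_UA and KPC values were fully separate in 3 genes, Myom3 and Ldb3 above and Cfl2 below, and in 1071 of all genes (7.92%, 3.78% above and 4.14% below).

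Among thin filament genes, 8 of 10 were above 0, with a median of 0.27. Actc1, the cardiac muscle actin that fetal and regenerating skeletal muscle also makes, had 4802, 4929, 4267 and 2135 normalised reads in KPC_UA, against 952, 2498, 1792 and 310 in KPC, and 640 to 4500 in Sham. KPC_UA replicate 4 lay within the KPC range and the other 3 above it. Limma put the log2 change at 1.84 (95% interval 0.56 to 3.11, adjusted p = 0.382 by limma). Tpm1 had 274319, 402722, 320588 and 337631 normalised reads in KPC_UA, and its log2 change against KPC was 0.52 (adjusted p = 0.382 by limma). Acta1 had 494022, 651969, 555814 and 539742 normalised reads in KPC_UA, with a log2 change of 0.33 (adjusted p = 0.386 by limma). Tnni2 and Neb were at 0.08 and -0.17 (adjusted p = 0.832 and 0.769 by limma).

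Lmod2 had 3710, 2543, 2948 and 2944 normalised reads in KPC_UA, and Lmod3 had 4809, 3781, 2651 and 3361. The KPC_UA values of Lmod2 lay close together inside the wide KPC range, and KPC_UA replicate 3 of Lmod3 lay below the highest KPC library. Against KPC, the log2 change was -0.95 for Lmod2 (95% interval -2.01 to 0.10) and 1.11 for Lmod3 (95% interval 0.07 to 2.16), with adjusted p = 0.386 and 0.382 by limma. Without KPC replicate 1 they were -0.45 and 0.57 (adjusted p = 0.635 and 0.543 by limma).

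In the thick filament and M-band, Myom3 had 402, 210, 187 and 214 normalised reads in KPC_UA, against 98.7, 172, 174 and 60.3 in KPC, with no overlap and a log2 change of 1.06 (95% interval 0.22 to 1.89, adjusted p = 0.382 by limma). Mybph was at 1.96 by limma (95% interval -0.24 to 4.16, adjusted p = 0.387 by limma) and at 1.02 by DESeq2. Its KPC_UA values were 244 to 428 and its KPC values 6.87 to 353 normalised reads. Myom1 was at -0.33 (adjusted p = 0.392 by limma), with 58623, 52132, 66582 and 66944 normalised reads in KPC_UA. Ttn was at -0.04 (95% interval -0.62 to 0.54) and Mybpc2 at 0.19 (95% interval -0.24 to 0.62), with adjusted p = 0.941 and 0.596 by limma.

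At the Z-disc, 10 of 13 genes were above 0, with a median of 0.19. Ldb3 had 45920, 35164, 31389 and 35228 normalised reads in KPC_UA, all above the highest KPC value, and a log2 change of 0.72 (95% interval 0.13 to 1.32, adjusted p = 0.382 by limma). Synpo2 had 23578, 16343, 15055 and 17867 normalised reads in KPC_UA and Synpo2l 5120, 3891, 3634 and 4076. In both genes all KPC_UA values lay above KPC replicates 1 and 4, and KPC replicate 2 lay within the KPC_UA range. Their log2 changes were 1.51 and 1.27 (adjusted p = 0.382 by limma for each). Actn3 was at 0.03 (95% interval -0.37 to 0.44, adjusted p = 0.930 by limma).

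Of the genes of the intermediate filament and repair, 4 of 6 were below 0. Nrap had 64895, 39083, 47682 and 48676 normalised reads in KPC_UA, with a log2 change of -0.77 (95% interval -1.46 to -0.08, adjusted p = 0.382 by limma), and -0.21 without KPC replicates 1 and 4 (adjusted p = 0.678 by limma). Leaving out these highest KPC libraries of Nrap, picked after the values were seen, was bound to raise its log2 change. Cryab had 11280, 10718, 5784 and 8135 normalised reads in KPC_UA, with a log2 change of 1.0 (95% interval 0.08 to 1.92, adjusted p = 0.382 by limma). Des was at -0.11 (adjusted p = 0.767 by limma). Flnc had 41916, 16353, 20359 and 19359 normalised reads in KPC_UA, and Xirp1 had 5448, 2257, 2126 and 2246. KPC_UA replicate 1 was the highest of its group in both genes, as KPC replicate 1 was of KPC. The stretch-responsive Csrp3 also had its highest value of the 12 libraries in KPC_UA replicate 1, at 1488 normalised reads, against 167 to 361 in the other KPC_UA libraries, and its log2 change was 0.89 (adjusted p = 0.458 by limma). Ankrd1 had 1283, 783, 211 and 394 normalised reads in KPC_UA, with a log2 change of 1.71 (95% interval -0.51 to 3.94, adjusted p = 0.413 by limma). Unc45b and Smyd1 were at 0.27 and 0.49 (adjusted p = 0.483 and 0.399 by limma), and all 4 genes of myosin folding and assembly were above 0. Fibroblast markers summed to 6371 to 11435 normalised reads in KPC_UA, against 4203 to 6807 in KPC, with 0 called by limma, and their part in these values was not tested.

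**Figure D4:**
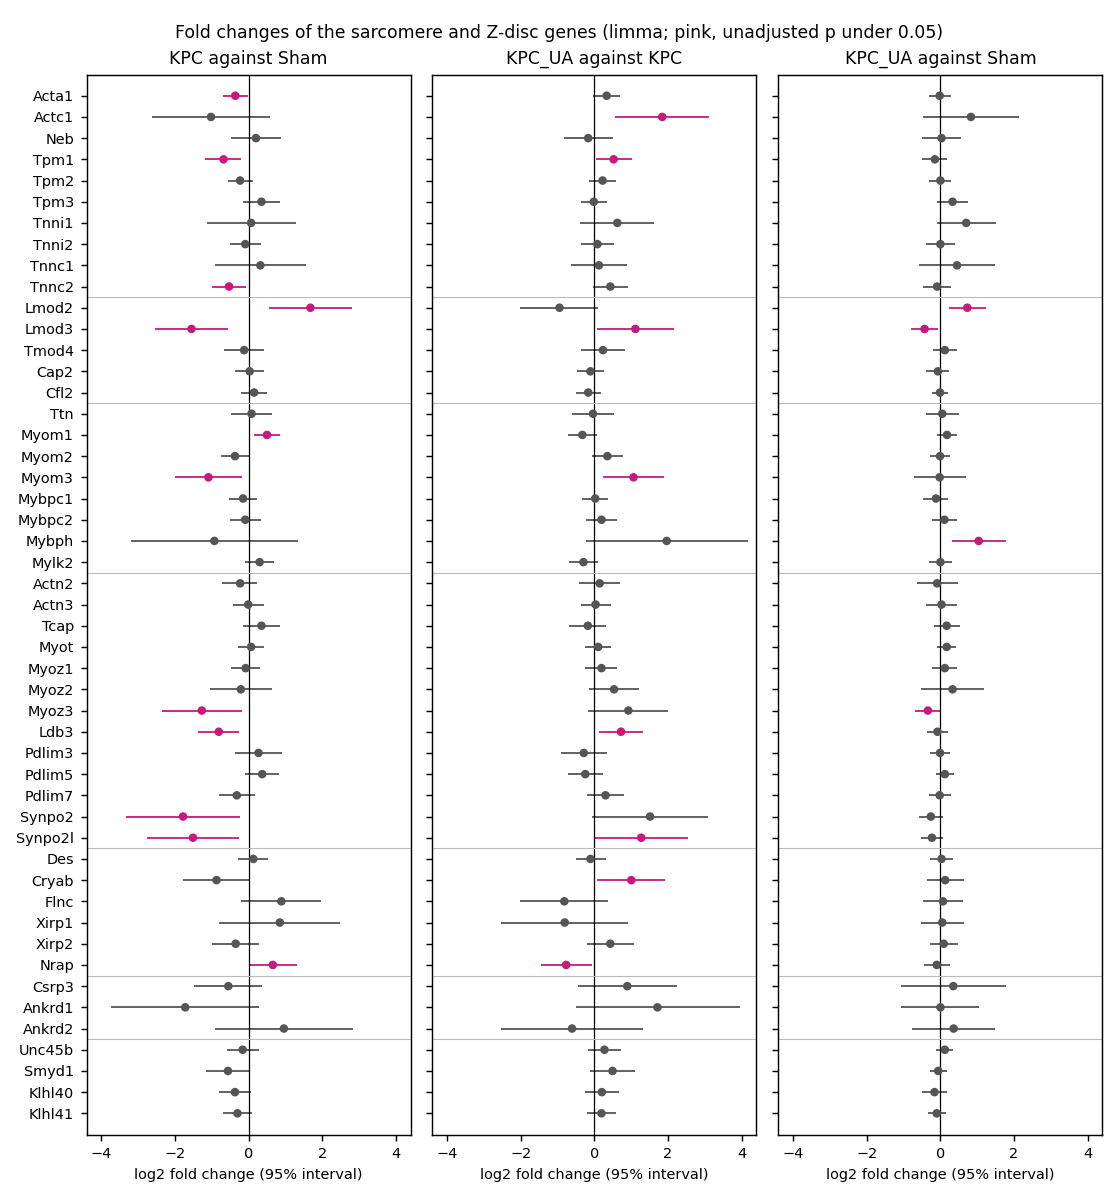
Log2 fold changes by limma of the 49 genes with 95% intervals in KPC against Sham (left), KPC_UA against KPC (middle) and KPC_UA against Sham (right), grouped by role, with unadjusted p under 0.05 in pink. Most intervals include 0, and those of KPC_UA against Sham are narrower on the whole (median SE 0.16, against 0.26 in KPC_UA against KPC and 0.25 in KPC against Sham).

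The last comparison sets KPC_UA muscle against that of mice without tumours. Differences were small for most genes, and 1 of 49 log2 changes exceeded 1 in size (2.04%), against 1.25% of all genes tested. None of the 49 genes was called by limma, edgeR or DESeq2, or in the authors' deposited table. Over all genes, limma and edgeR called 0 of 13567 (0%) and DESeq2 called 94 of 13569 (0.693%), as did the authors' deposited table. An unadjusted p under 0.05 by limma was found for 4 of the 49 genes and for 1077 of all genes (7.94%). The groups overlapped in all 49 genes, while they did not in 556 of all genes (4.1%). The median log2 change was 0.03, against 0.009 over all genes tested.

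The 4 genes with a small unadjusted p were Lmod2, Lmod3, Mybph and Myoz3. Lmod2 was at 0.73 (95% interval 0.23 to 1.23, adjusted p = 0.396 by limma), and 3 of its 4 KPC_UA values lay above every Sham value. Lmod3 was at -0.43 (95% interval -0.79 to -0.07, adjusted p = 0.502 by limma), and 3 of its 4 KPC_UA values lay below every Sham value. Mybph was at 1.04 (95% interval 0.32 to 1.77, adjusted p = 0.413 by limma) and Myoz3 at -0.34 (95% interval -0.68 to 0.00, adjusted p = 0.623 by limma). The 95% intervals of the genes given in every comparison were -0.32 to 0.28 for Acta1, -0.40 to 0.40 for Tnni2, -0.40 to 0.46 for Actn3, -0.29 to 0.35 for Des and -0.11 to 0.35 for Unc45b. They were -0.23 to 0.45 for Mybpc2, -0.09 to 0.45 for Myom1, -0.40 to 0.50 for Ttn and -0.49 to 0.55 for Neb. Of the slow-fibre forms, Tnni1 was at 0.70, the tropomyosin Tpm3 at 0.33 and Myom3 at -0.02 (adjusted p = 0.693, 0.736 and 0.997 by limma). A list of 6 slow-fibre markers had a median log2 change of -0.20, with 5 below 0, 0 called by limma and 1 lower by DESeq2. Synpo2, Cryab and Nrap were at -0.26, 0.13 and -0.10 (adjusted p = 0.735, 0.971 and 0.959 by limma), and Csrp3, Ankrd2 and Klhl40 at 0.35, 0.36 and -0.16 (adjusted p = 0.974, 0.956 and 0.929 by limma).

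**Figure D5:**
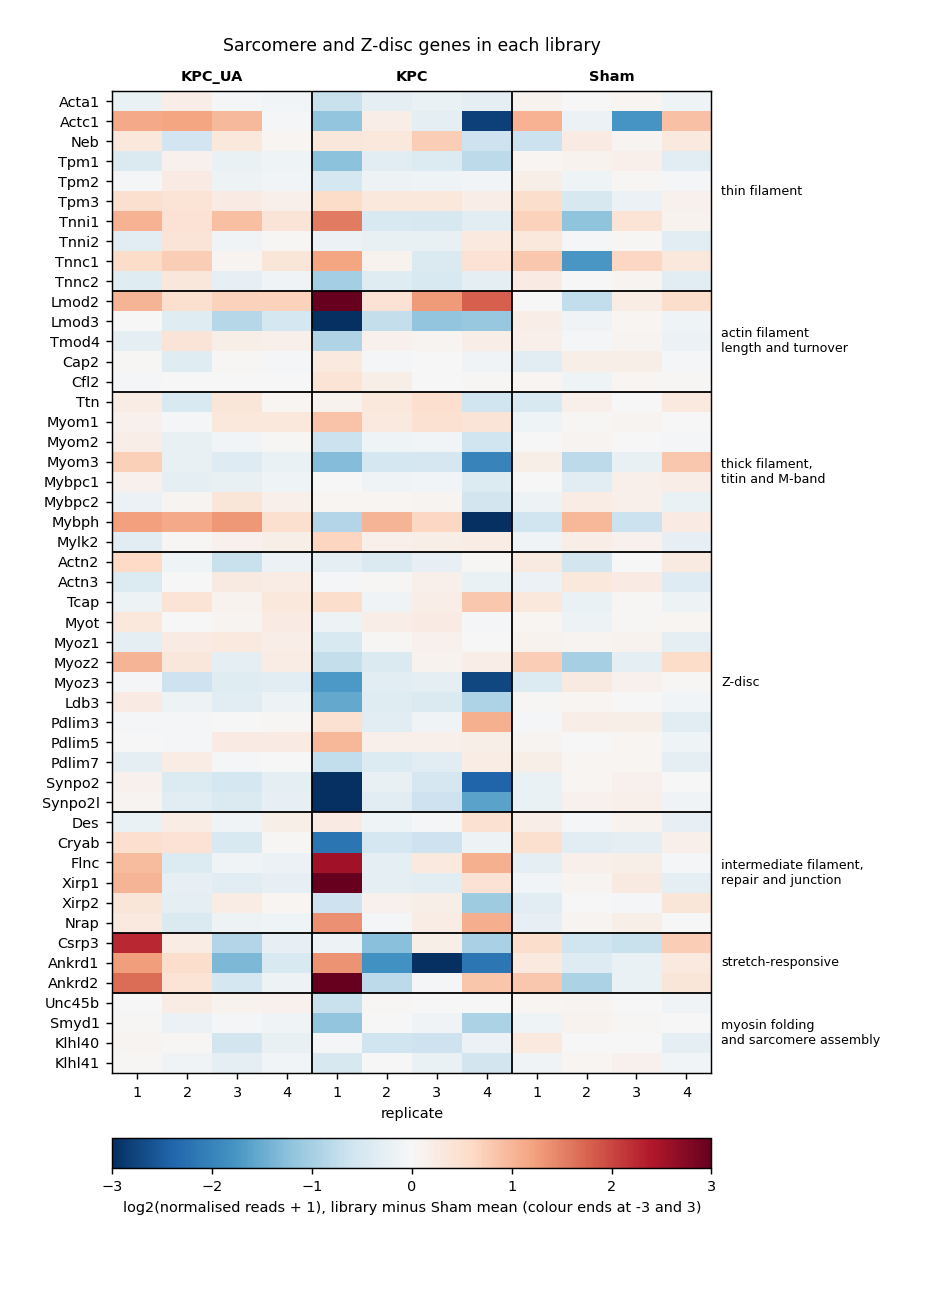
Each library's log2(normalised reads + 1) minus the Sham mean for the 49 genes, in rows by role, with KPC_UA, KPC and Sham libraries in columns. Many of the strongest colours are in KPC replicates 1 and 4, in which Lmod2, Flnc and Nrap are red and Lmod3, Ldb3, Synpo2 and Synpo2l are blue.

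A list of 34 other genes of the sarcomere, Z-disc and costamere had a median log2 change of -0.40 in KPC against Sham, with 25 below 0. Limma called 0 of them and DESeq2 called 5, all lower in KPC, where it called 11.8% of all genes and 5.03% lower. Fhl1, a LIM protein of the sarcomere, was at -0.99 (adjusted p = 0.0557 by limma, 0.00161 by DESeq2), and Fhod3, a formin that builds sarcomeric actin, at -0.72 (adjusted p = 0.0851 by limma, 0.012 by DESeq2). In KPC_UA against KPC the median of the list was 0.29, with 24 above 0 and 0 called by limma or DESeq2. There Palld, an actin scaffold of the Z-disc, was at 0.99 and Smpx, a small stretch-associated protein, at 0.52 (adjusted p = 0.382 by limma for each). In KPC_UA against Sham the median was -0.08 with 0 called by either tool, and Ky and Palld were at -0.63 and -0.43 (adjusted p = 0.352 and 0.469 by limma).

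Among 15 transcription factors and coactivators of sarcomere genes, 1 was lower in KPC muscle by limma, which called 0.827% of all genes lower. DESeq2 called 1 of the 15 higher and 1 lower, against 6.79% of all genes higher and 5.03% lower. The gene lower by limma was Mrtfa, the coactivator that carries actin signals to SRF. It had 917, 714, 396 and 531 normalised reads in KPC_UA, 93.5, 537, 276 and 215 in KPC, and 1120, 1348, 1127 and 906 in Sham. Every KPC value lay below every Sham value, and KPC replicate 1 was the lowest. Mrtfa fell by 2.25 on the log2 scale in KPC against Sham (SE 0.43, adjusted p = 0.0445 by limma, 0.000267 by DESeq2). The limma call is among those lost without KPC replicate 3 or 4 or any 1 Sham replicate, where 0 genes were called in all. Myog, the myogenic factor myogenin that denervation and regeneration induce, was called higher by DESeq2 and not by limma, at 1.14 (adjusted p = 0.0702 by limma, 0.0031 by DESeq2). In KPC_UA against KPC, Mrtfa was at 1.38 and Srf at 0.47 (adjusted p = 0.382 by limma for each). In KPC_UA against Sham, Mrtfa was at -0.86 and Myog at 0.97 (adjusted p = 0.306 and 0.332 by limma).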

How the data were processed

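RNA sequencing of total RNA gave 12 libraries. Per the submitters' processing notes, reads were handled with bcl2fastq 2.17, featureCounts and Subread 1.5.2 on GRCm38. The sources used here do not name the aligner, the annotation or the use of strand. For each pair of groups the authors deposited 1 table. It holds a normalised signal for every gene in 8 libraries and, per the file headers, log2 fold changes and p-values. The deposited signal was a whole number of reads divided by a size factor per library, since 100% of values came out whole (tolerance 0.01 reads), so the deposited values could be turned back into counts. Listed genes numbered 13578, 13557 and 13583, each with at least 81 reads over its 8 libraries.

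Each table was tested on its own with limma 3.58.1 (R 4.3.3; two-sided; trend and robust options) after a log2(value + 1) transformation. Genes needed a mean of at least 10, with Benjamini-Hochberg adjustment over all genes tested. Adding 1 makes the fold changes of low genes smaller, but in uneven genes limma and DESeq2 differed in both directions. In KPC against Sham, limma gave the larger size for Mybph (-0.93, against -0.11 by DESeq2) and Ankrd1 (-1.72 against -0.41). It gave the smaller for Xirp1 (0.85 against 1.90) and Ankrd2 (0.96 against 1.99). Alternatives were pseudocounts of 0.5 and 5, no filter and a mean of at least 50, TMM and quantile scaling, limma without trend, edgeR 4.0.16 quasi-likelihood tests and DESeq2 1.42.0 on the recovered reads, the authors' adjusted p-values, edgeR over 12 libraries, the replicate block, a correction for transcript length and each library left out. Limma, edgeR, DESeq2 and limma with the length correction were also run on simulated data, and the other alternatives were not. DESeq2 with default settings gave the deposited log2 fold changes for 100% of genes within 0.01. Coordinates and exon lengths are from GENCODE M21 (GRCm38), counted from 1, and promoters from RefSeq (GRCm38.p6). No columns of other samples were present, and no sample was left out of the main test.

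The 49 genes and the lists were chosen with earlier results of these data known. Genes named in each comparison were the 2 with the smallest limma p in each of 7 roles, members with groups that did not overlap and a log2 fold change over 1 in size, 9 genes given in every comparison (Acta1, Actn3, Ttn, Neb, Tnni2, Mybpc2, Myom1, Des and Unc45b), and the 2 smallest p of each other list. Other members named for their spread, overlap or role were chosen after their values were seen.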

Additional observations from a re-analysis of the deposited data

Results flagged for a closer look

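In each of the 3 groups of 4 samples, the highest or lowest value of each of the 49 genes was set against the gap to its nearest neighbour, divided by the range, with Dixon's 95% critical value. In all 19 of 147 sets of 4 values passed (12.9%), 5 in KPC_UA, 11 in KPC and 3 in Sham. Chance flags about 1 in 20 sets of independent, normally distributed values, but these values were not log-transformed and the genes share libraries. Only the 49 genes were checked, so the share over all genes is not known and no excess particular to these genes is shown. Of the 11 in KPC, 9 lay in KPC replicate 1. High there were Xirp1 at 32759 normalised reads (nearest other 3595), Ankrd2 at 15246 (1918), Ankrd1 at 1373 (154), Pdlim5 at 17231 (9826), Mylk2 at 53581 (39813) and Tnni1 at 98.7 (25.96). Low there were Tpm2 at 123410 (159255), Tmod4 at 4272 (8483) and Unc45b at 6341 (10015). In KPC replicate 4, Tnni2 was high at 240356 (175217) and Mybpc2 low at 104196 (158318).

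All 5 sets in KPC_UA had their distant value in replicate 1. High there were Csrp3 at 1488 normalised reads (361), Xirp1 at 5448 (2257), Flnc at 41916 (20359) and Myom3 at 402 (214), and Myoz1 was low at 37083 (52277). In Sham, Cfl2 and Myot were low in replicate 2 at 6327 (7052) and 26842 (30677), and Myoz1 was low in replicate 4 at 37362 (47750). Values in parentheses are the nearest other library of the same group.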

How the results depend on the processing

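In KPC against Sham, limma's count of 160 genes became 87 with a mean of at least 50, 257 with quantile normalisation, 66 with the replicate block, 1595 by DESeq2 and in the authors' deposited table, 1491 by edgeR over 12 libraries, and 0 to 1350 when 1 library was left out (0 without KPC replicate 3 or 4 or any 1 Sham replicate, 395 without KPC replicate 1 and 1350 without KPC replicate 2). Chosen after seeing the data, leaving out KPC replicate 4 and Sham replicate 1 gave 0 and leaving out KPC replicates 1 and 4 gave 600. Among the 49 genes the count of 0 became 3 by DESeq2, in the authors' deposited table and by edgeR over 12 libraries, 2 without KPC replicates 1 and 4, and 0 to 4 when 1 library was left out (2 without KPC replicate 1, 4 without KPC replicate 2). DESeq2's count of 3 was 1 to 11 when 1 library was left out, 1 without any 1 Sham replicate, 5 without KPC replicate 1 or 3, and 11 without KPC replicate 2. The median of -0.15 was -0.25 with quantile normalisation, -0.07 without KPC replicate 4 and Sham replicate 1, and -0.26 to -0.10 when 1 library was left out.

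In KPC_UA against KPC the count of 0 genes became 100 by DESeq2, 99 in the authors' deposited table, 2 by edgeR over 12 libraries, 2 without KPC replicates 1 and 4 and 0 to 3 when 1 library was left out. In KPC_UA against Sham it became 94 by DESeq2 and in the authors' deposited table, 4 without KPC_UA replicate 2 and Sham replicate 1, and 0 to 4 when 1 library was left out. In both, 0 of the 49 genes were called under every alternative run. The causes of these shifts were not tested.

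Of the genes named, 512 of 529 values in KPC against Sham kept their side of the threshold and 17 newly passed it, while 506 of 506 and 461 of 461 did in the other comparisons. Signs changed in 17, 19 and 28 uncalled values. Rescaling moved the median of all genes by less than 0.1 in each comparison.

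The labels do not say whether samples of equal replicate number were paired, and their values showed no sign of it. Differences between libraries also enter this check, so it cannot exclude shared handling. Deviations of same-numbered samples correlated at -0.265 to 0.045 in KPC against Sham, -0.088 to 0.07 in KPC_UA against KPC and -0.241 to 0.135 in KPC_UA against Sham, and the same number was the best match in 1 of 12 such pairs. With the replicate block, 0 genes were called in each comparison with KPC_UA, and 0 of the 49 genes in each comparison. Depth bears most on the genes with few reads, such as Tnni1, at 23.3 to 98.7 normalised reads in KPC. Mybph had 6.87 normalised reads in KPC replicate 4, which was the library with the most reads (32.0 M).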
